A study of Rattus norvegicus with 6 samples.

Results

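Reactive astrocyte genes are described here in the cells of rat hippocampus, as a set of 8 genes: Gfap, Vim, Serpina3n, Lcn2, Osmr, Cd44, S100b and Steap4. They were taken by symbol from the 30452 genes of the count matrix, each symbol has 1 row, and the rule that picks them goes by symbol. The labels list 3 male rats whose whole brain was irradiated with 20 Gy and 3 male control rats, with hippocampi taken 2 months later. The labels used here give neither strain nor age. Tissue was cut up, digested to single cells, freed of red cells and of dead cells, and sequenced with a droplet method that counts the 3′ ends of transcripts by unique molecular identifiers (UMIs). The matrix pools 6 libraries that are told apart only by the number at the end of each cell barcode, from 1 to 6. No label ties a number to a rat, so nothing is compared here between irradiated and control rats, and the libraries are given one by one with no group. The pooled matrix is 1 sample: intervals cover counting error only, and no p-value is given.

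Astrocytes are the glial cells that take up transmitter and potassium and line synapses and vessels. After injury they change shape and gene activity, a state called reactive. Gfap and Vim encode intermediate filament proteins that build the skeleton of astrocyte processes. S100b encodes a calcium-binding protein that astrocytes make and release. Cd44 encodes a surface receptor for hyaluronan, the long sugar chain of the brain matrix. Lcn2 and Serpina3n encode secreted proteins, an iron-scavenging lipocalin and a protease inhibitor. Osmr encodes the receptor chain for oncostatin M, a cytokine that signals through STAT3, and Steap4 encodes a membrane enzyme that reduces iron and copper. Apart from S100b, the set is best known from mouse brain, where these genes rose in astrocytes in more than one model of injury.

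Of 58078 barcodes, 44800 were kept as cells, and 11906 of them (26.6%, exact 95% binomial interval 26.2 to 27.0%) were astrocyte-like. The name rests on 16 astrocyte markers, none of them a member, in 6 of 35 clusters built without the members. All 16 markers were higher in astrocyte-like cells than in the other 32894 kept cells, by log2 ratios of 3.72 (Slc1a3, a glutamate carrier) to 4.86 (Slc4a4, a bicarbonate carrier). Levels are CPM, the UMIs of a gene after all UMIs of a class are scaled to a total of 1000000, and ratios have 1 CPM added to both sides. Library totals ranged over 46853113 to 62094407 UMIs. Astrocyte-like cells had a median of 5988.5 UMIs and 12.4% mitochondrial UMIs, against 4793.5 UMIs and 6.46% in the other cells. Libraries 1 to 6 held 565, 1321, 1533, 4029, 2408 and 2050 astrocyte-like cells, which were 10.3, 15.7, 16.03, 50.3, 30.3 and 38.2% of their kept cells. The other cells also differed: microglia-like cells numbered 4309, 6350 and 7023 in libraries 1 to 3 and 171, 240 and 28 in libraries 4 to 6. Of 44551 distinct barcode sequences among kept cells, 249 occurred in more than 1 library.

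The 8 members did not behave as 1 group in astrocyte-like cells. Gfap, S100b and Cd44 were at least 2-fold higher there than in all other kept cells, against a background of 27.3% of the 13262 genes with at least 1 CPM over all kept cells. Vim and Steap4 were at least 2-fold lower there, against a background of 21.2%. Steap4 passed the filter of 1 CPM only through the other cells, with 0.474 CPM in astrocyte-like cells and 11.5 CPM in the others. Its call was thus partly set by the filter. Lcn2 and Osmr lay below 1 CPM over all kept cells and were not counted, and Serpina3n had no UMI in any cell. The 5 members that were counted had a median log2 ratio of 1.26, beside 0.20 over all counted genes. Gfap and S100b were at least 2-fold higher in each of the 6 libraries, as were 19.9% of all counted genes. Vim and Steap4 were at least 2-fold lower in each library, as were 13.1% of all counted genes.

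**Figure D1:**
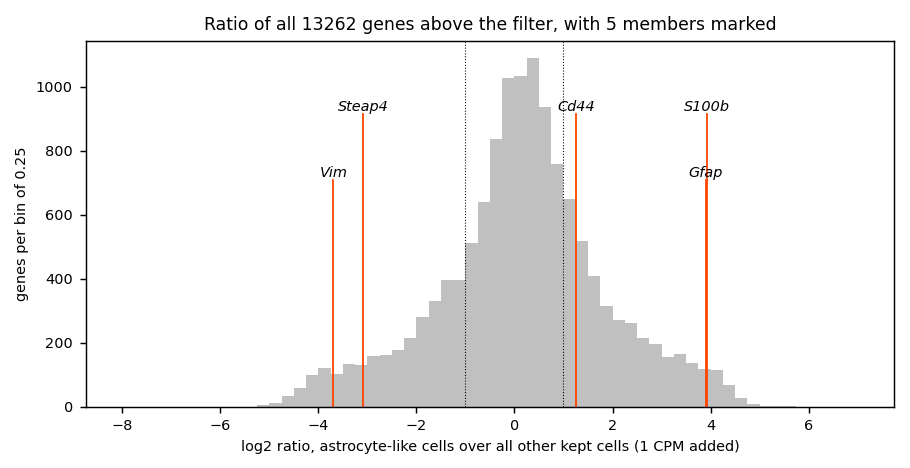
Number of genes (vertical axis) in bins of the log2 ratio of astrocyte-like cells over all other kept cells (horizontal axis), for the 13262 counted genes. Vertical lines mark the 5 counted members: Gfap at 3.91 and S100b at 3.92 lie in the upper tail, Cd44 at 1.26 just past the dotted 2-fold line, and Steap4 at -3.09 and Vim at -3.69 in the lower tail.

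Gfap, the intermediate filament gene by which astrocytes are usually recognised, was high in the astrocyte-like cells of every library. Its level there was 1081, 1266, 952, 1477, 1805 and 1787 CPM in libraries 1 to 6, against 57.0, 63.7, 33.1, 223, 152 and 143 CPM in the other cells of the same libraries. The 6 astrocyte values did not overlap the 6 other values, and libraries 5, 6 and 4 held the 3 highest. Pooled, Gfap stood at 1524 CPM (exact 95% Poisson interval 1515 to 1533) in astrocyte-like cells and 101 CPM (99.2 to 102) in the others, a log2 ratio of 3.91. Between libraries that ratio ran over 2.72 to 4.81, lowest in library 4, where the other cells had their highest Gfap level. The astrocyte level itself differed 1.90-fold between library 3, the lowest, and library 5, the highest. Of 8668 genes with at least 10 CPM in astrocyte-like cells, 17.5% differed at least that much between libraries, and the median gene differed 1.44-fold.

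S100b, which encodes a small calcium-binding protein, differed less between libraries than Gfap, Vim and Cd44, the other members with at least 10 CPM in astrocyte-like cells. It was at 4271, 5503, 5378, 5031, 5738 and 5212 CPM in astrocyte-like cells of libraries 1 to 6, against 246, 247, 207, 714, 389 and 471 CPM in the other cells. No astrocyte value overlapped the others, and library 1 was the lowest. Its highest and lowest libraries were 1.34-fold apart, and 63.5% of the 8668 genes differed at least that much. Pooled, the level was 5296 CPM (5280 to 5312) in astrocyte-like cells and 349 CPM (346 to 352) in the others, a log2 ratio of 3.92.

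**Figure D2:**
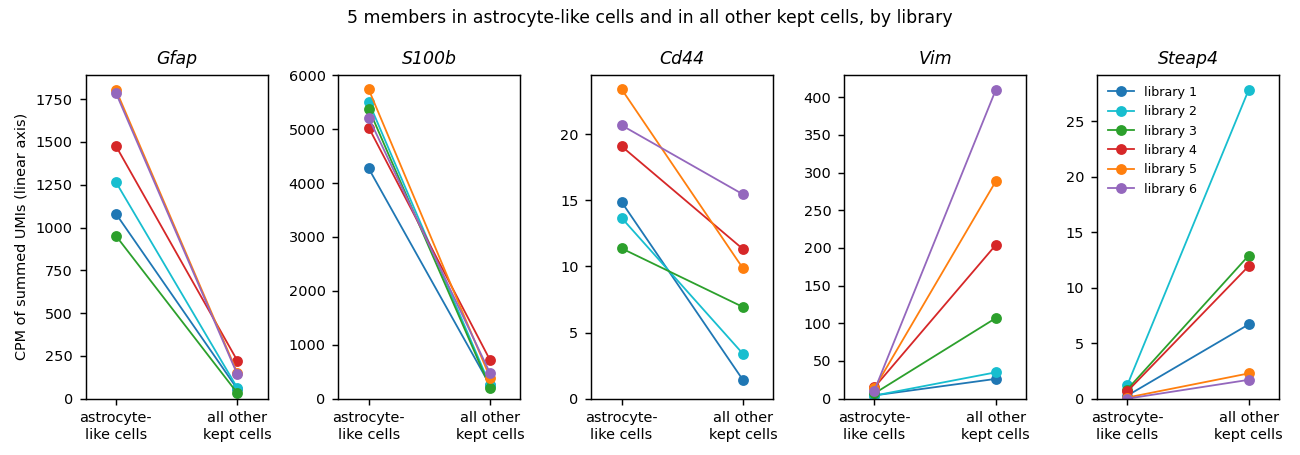
CPM of summed UMIs (vertical axis, linear, own scale per gene) of the 5 counted members in astrocyte-like cells (left) and in all other kept cells (right); each line joins the 2 values of 1 library. All 6 lines slope down for Gfap and S100b and up for Vim and Steap4, while for Cd44 the astrocyte range of 11.4 to 23.4 CPM overlaps the range of 1.41 to 15.5 CPM in the other cells.

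The promoters of these 2 astrocyte-enriched members, Gfap and S100b, are shown as reference sequence, with that of Steap4, a member that was low in astrocyte-like cells and whose promoter holds the motif searched. They are taken from RefSeq (build GRCr8), 250 bases before to 50 bases after the transcription start, 5′ to 3′ on the gene's strand. Capitals mark TTCNNNGAA, the palindrome that STAT factors bind and that reads the same on both strands. It occurred in the promoters of 2 of the 8 members, Steap4 and Serpina3n, and in 8.87% of all 33469 promoters of the table. The Gfap promoter is chr10:88361612-88361911, minus strand, the S100b promoter chr20:12381032-12381331, minus strand, and the Steap4 promoter chr4:27054720-27055019, minus strand.
Gfap: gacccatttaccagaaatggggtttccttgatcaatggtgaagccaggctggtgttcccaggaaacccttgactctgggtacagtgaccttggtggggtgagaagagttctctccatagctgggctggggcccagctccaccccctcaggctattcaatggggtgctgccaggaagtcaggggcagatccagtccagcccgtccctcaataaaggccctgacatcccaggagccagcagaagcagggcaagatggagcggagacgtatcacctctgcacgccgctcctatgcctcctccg
S100b: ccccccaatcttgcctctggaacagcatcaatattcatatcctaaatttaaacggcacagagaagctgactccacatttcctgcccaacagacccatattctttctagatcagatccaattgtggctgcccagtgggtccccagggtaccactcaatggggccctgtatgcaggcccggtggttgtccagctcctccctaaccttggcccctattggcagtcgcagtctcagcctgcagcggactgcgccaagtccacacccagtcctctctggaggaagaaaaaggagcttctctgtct
Steap4: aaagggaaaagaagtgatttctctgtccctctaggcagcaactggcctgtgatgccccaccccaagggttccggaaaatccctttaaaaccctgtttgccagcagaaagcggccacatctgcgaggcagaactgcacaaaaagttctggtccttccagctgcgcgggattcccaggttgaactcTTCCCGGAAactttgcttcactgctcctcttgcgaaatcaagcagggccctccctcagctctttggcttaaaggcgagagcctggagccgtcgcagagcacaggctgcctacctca
The match in Steap4 begins 66 bases before the start, and the Gfap and S100b windows hold none. In Serpina3n, at chr6:129088142-129088441 on the plus strand, the match begins 123 bases before the start and is given here with 10 bases on each side.
Serpina3n: tgagtccatgTTCCCAGAAatcatcccgt
A match describes the letters of this window and is not a measured binding site.

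UMIs of Gfap and S100b were also found in every other class of at least 100 cells, at a small part of the astrocyte level. Over the 16 classes and unnamed clusters of that size, both genes were highest in astrocyte-like cells, and their library range there did not overlap that of the next class. Next came, for Gfap, cluster 27 with 234 CPM (203 to 269), and for S100b neutrophil-like cells with 984 CPM (876 to 1102). Microglia-like cells were last for both, with 48.8 CPM of Gfap and 209 CPM of S100b. Below the top, neighbouring classes overlapped in their library ranges, except neuroblast-like cells for Gfap. Their range of 70.9 to 86.7 CPM lay below that of cluster 24, ranked above them (188 to 222 CPM). It also lay below that of cluster 1, ranked next after them by pooled level (157 to 294 CPM).

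The other astrocyte genes gave a measure of astrocyte RNA in those classes. In microglia-like cells the 16 astrocyte markers summed to 3.64% of their astrocyte level, with single markers at 1.30 to 6.87%, while Gfap stood at 3.20% and S100b at 3.94% of theirs. The Gfap and S100b values in microglia-like cells thus lay within the range of the markers. In mature oligodendrocyte-like cells the markers summed to 5.34% (single markers 3.30 to 8.88%), with Gfap at 6.51% and S100b at 11.2%. S100b, which mature oligodendrocytes are also known to make, lay above every one of the 16 markers there. That excess held against the single markers of the same library in 2 of the 6 libraries, library 1 with 10.8% and a marker maximum of 7.26%, and library 2 with 15.9% and a maximum of 5.93%. Pooled, S100b was also above every marker in neutrophil-like cells (18.6% against a maximum of 15.7%), border macrophage-like cells (8.22% against 7.94%) and clusters 1, 15, 16 and 24. Within single libraries S100b was below the highest marker in libraries 2 and 4 for neutrophil-like cells. The same held in libraries 3 and 5 for border macrophage-like cells and in library 5 for clusters 1 and 15. It also held in libraries 2, 5 and 6 for cluster 16 and in both libraries with at least 20 cells for cluster 24.

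Gfap lay above every marker in border macrophage-like cells (10.0% against a marker maximum of 7.94%) and in clusters 1, 10, 15 and 24, and these clusters came almost wholly from libraries 4 to 6. In border macrophage-like cells that held within library 4 only, with 16.5% against 12.99%, of the 4 libraries with at least 20 of these cells. In cluster 1, led by Clec7a, Lyz2 and Lgals3, Gfap was at 12.8% of its astrocyte level and the highest marker at 10.5%. Within libraries 4, 5 and 6, cluster 1 had 19.9, 9.62 and 8.79% for Gfap, against marker maxima of 17.6, 9.34 and 8.27%. So Gfap exceeded the highest marker by little in each. Within single libraries Gfap was below the highest marker in library 5 for cluster 10 (5.96% against 6.05%), in library 6 for cluster 15 (7.79% against 8.09%) and in both libraries with at least 20 cells for cluster 24 (10.4% against 12.2% and 12.4% against 22.3%). The part that RNA released from astrocytes has in these values was not tested.

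**Figure D3:**
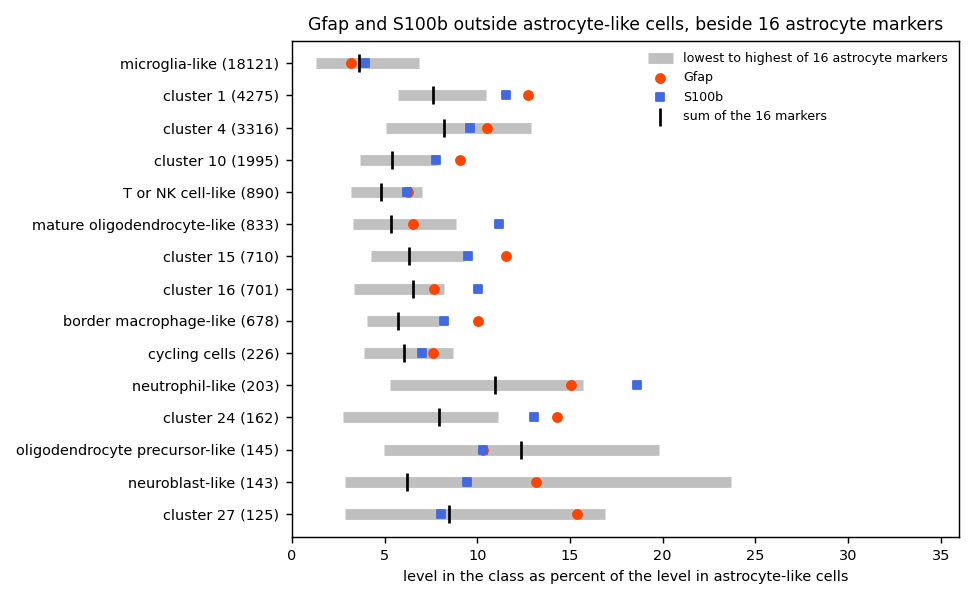
Level of Gfap (circles) and S100b (squares) in 15 other classes and clusters as percent of their level in astrocyte-like cells (horizontal axis); grey bars run over the lowest to the highest of 16 astrocyte markers and ticks give the sum of the markers. In microglia-like cells both members lie inside the bar of 1.30 to 6.87%, while S100b in mature oligodendrocyte-like cells (11.2%) and Gfap in cluster 1 (12.8%) lie to the right of theirs.

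Cell by cell, S100b was found in nearly all astrocyte-like cells and Gfap in most. To set depth equal, each cell was thinned to 2000 UMIs, which left 9526 astrocyte-like cells and left out 2380 shallower ones. Gfap was found in 84.1% of these cells (exact 95% binomial interval 83.4 to 84.9%), against 8.96% (8.54 to 9.40%) of 17254 thinned microglia-like cells, which should lack it. Without thinning the shares were 91.1% of astrocyte-like cells and 20.5% of microglia-like cells, at median depths of 5988.5 and 4793 UMIs. Thinned S100b was found in 99.9% of astrocyte-like cells and 33.0% of microglia-like cells. The thinned Gfap share by library was 75.0, 78.9, 68.7, 87.8, 86.6 and 90.0%, again with libraries 4 to 6 highest.

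Gfap and S100b were only weakly correlated among astrocyte-like cells. Their Pearson correlation over thinned cells had a median of 0.06 over the libraries, with a range of 0.01 to 0.11. In counts this sparse no gene reached a median r with Gfap above 0.17, so independence cannot be read from this value. The genes whose thinned counts were most like those of Gfap were Aqp4, the water channel (median r 0.17), Clu, which encodes clusterin (0.15), and Id3, a transcription regulator (0.15). For S100b they were Mt3, a metallothionein gene (0.43), Aldoc, a glycolytic aldolase gene (0.38), and Ckb, the brain creatine kinase gene (0.33). All these values share the depth and the free RNA of their library and carry no test. Over the 16 classes and clusters, the genes most like the members in log2 level were the glutamate carrier gene Slc1a2 and a gene listed only as ENSRNOG00000062419 for Gfap (r 0.98 and 0.97), and Tst and Ppp1r1b for S100b (0.97 and 0.97).

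Vim, the filament gene that reactive astrocytes carry beside Gfap, was low in astrocyte-like cells of all 6 libraries. It was at 4.33, 4.10, 6.92, 15.03, 13.7 and 10.8 CPM there, against 26.3, 35.0, 107, 204, 288 and 410 CPM in the other cells. The ranges did not overlap. Pooled, Vim was at 11.3 CPM (10.6 to 12.1) in astrocyte-like cells and 158 CPM (157 to 160) in the others, a log2 ratio of -3.69, and log2 ratios by library ran over -5.12 to -2.36. Among the 16 classes and clusters astrocyte-like cells ranked 15, above mature oligodendrocyte-like cells with 8.25 CPM (5.87 to 11.3). The highest Vim was in neutrophil-like cells with 1395 CPM, cluster 27 with 1286 CPM and T or NK cell-like cells with 661 CPM. Against microglia-like cells alone, pooled at 30.0 CPM (28.9 to 31.1), the ratio was smaller, -1.33. By library, microglia-like cells had 18.3, 16.4, 52.3, 52.6, 62.8 and 126 CPM of Vim. The pooled ratio sets classes with unlike library mixes side by side and is weaker than the ratio within any library.

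The Vim level of astrocyte-like cells was the most variable of the members with at least 10 CPM. It differed 3.67-fold between library 2 and library 4, and 2.96% of the 8668 genes differed at least that much. Libraries 4, 5 and 6, which were highest, also had the most Vim in the other cells, where the Vim-rich clusters 1, 10, 15 and 24 were found almost only in these libraries. Microglial markers measured how far RNA of other cells reached astrocyte-like cells: the 12 measured markers summed to 4.02% of their microglia-like level, and 1 of the 12 was at 0 in astrocyte-like cells. Over the 10 markers with at least 10 CPM in microglia-like cells, single markers stood at 2.06 to 18.6%. Pooled, Vim stood at 37.8% of its microglia-like level and at 0.813% of its neutrophil-like level. Within libraries 1 to 6 Vim was at 23.7, 25.05, 13.2, 28.6, 21.8 and 8.54% of its microglia-like level. The highest single marker there was at 20.7, 24.5, 25.1, 19.6, 15.95 and 16.6%, so Vim lay inside the marker range in libraries 3 and 6. The pooled 37.8% is above every library value, because the 2 classes have unlike library mixes. The 8 measured border macrophage markers summed to 8.66, 7.45, 6.10, 26.1, 18.7 and 10.4 CPM in astrocyte-like cells of libraries 1 to 6, and so, like Vim, were higher in libraries 4 to 6. With likely doublets kept, Vim in astrocyte-like cells was at 20.8 CPM, with a log2 ratio of -2.84. How much of the astrocyte Vim came from other cells was not tested.

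After thinning, Vim was found in 2.39% (2.10 to 2.72%) of astrocyte-like cells and 5.30% (4.97 to 5.64%) of microglia-like cells. In T or NK cell-like cells the share was 45.8%. Over the 16 classes and clusters, the genes most like Vim were Anxa2 and S100a11 (r 0.94 and 0.89), which encode calcium-binding proteins.

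Cd44, the hyaluronan receptor gene, was low but present in astrocyte-like cells of all 6 libraries. It was at 14.9, 13.7, 11.4, 19.1, 23.4 and 20.7 CPM there, against 1.41, 3.39, 6.94, 11.3, 9.86 and 15.5 CPM in the other cells. The astrocyte value was above the other value in each library, but the ranges overlapped, and the difference reached 2-fold in libraries 1, 2 and 5 only. Pooled, Cd44 was at 18.9 CPM (18.0 to 19.9) in astrocyte-like cells and 7.34 CPM (6.94 to 7.75) in the others, a log2 ratio of 1.26. With 10 CPM added in place of 1, or against the median of the other classes (log2 ratio 0.64), Cd44 was under 2-fold.

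The side it was compared with decided the size of the Cd44 difference. Neutrophil-like cells had 351 CPM (288 to 424), T or NK cell-like cells 90.9 CPM (82.3 to 100) and cycling cells 22.7 CPM (16.7 to 30.2), and astrocyte-like cells ranked 4, with library ranges that overlapped those of cycling cells. Microglia-like cells had 0.730 CPM (0.568 to 0.924), which gave a log2 ratio of 3.52 for astrocyte-like cells over microglia-like cells. Mature oligodendrocyte-like cells had 0.847 CPM (0.231 to 2.17). After thinning, Cd44 was found in 3.76% (3.39 to 4.16%) of astrocyte-like cells and 0.168% (0.113 to 0.241%) of microglia-like cells. Over the 16 classes and clusters Cxcr4, a chemokine receptor gene, and Nubp2 were most like Cd44 (r 0.86 and 0.85).

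**Figure D4:**
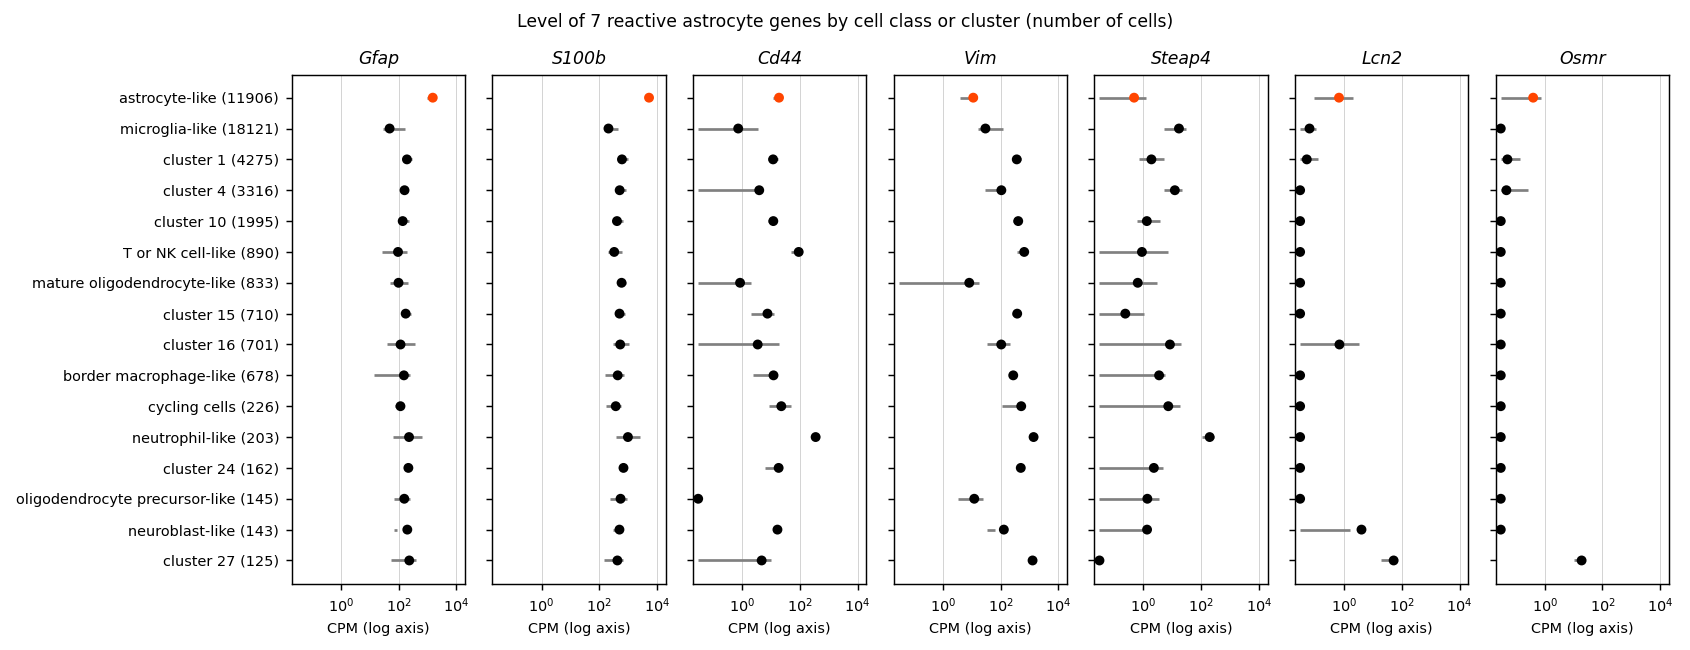
CPM (horizontal axis, log scale) of 7 members in astrocyte-like cells and in 15 other classes and clusters with their number of cells; points are pooled levels and grey lines run over the libraries with at least 20 cells of the class. Values under 0.03 CPM are drawn at 0.03. Astrocyte-like cells are highest for Gfap and S100b, neutrophil-like cells for Cd44, Vim and Steap4, and cluster 27 for Lcn2 and Osmr; Serpina3n had no UMI and is left out.

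Steap4, the metalloreductase gene, was found in few astrocyte-like cells and was highest in neutrophil-like and microglia-like cells. It had 37 UMIs in 36 astrocyte-like cells, 0.474 CPM (0.334 to 0.654), against 2047 UMIs and 11.5 CPM (11.03 to 12.04) in the other cells. By library, astrocyte-like cells had 0.271, 1.21, 0.824, 0.652, 0.102 and 0 CPM, and the other cells 6.69, 27.8, 12.9, 11.95, 2.28 and 1.70 CPM. The ranges did not overlap, and the pooled log2 ratio was -3.09. Neutrophil-like cells had 197 CPM (150 to 253), microglia-like cells 17.0 CPM (16.2 to 17.8) and cluster 4, led by Mmp2, Lyve1 and Cdkn1a, 12.2 CPM (10.8 to 13.8). Pooled, Steap4 in astrocyte-like cells was at 2.79% of its microglia-like level, inside the 2.06 to 18.6% of the 10 single microglial markers. Within libraries it was below the lowest marker in library 1 (3.94% against 5.25%) and library 6 (0% against 0.574%), and inside the range in libraries 2 to 5. With likely doublets kept it was at 0.906 CPM, and against the median of the other classes it was under 2-fold, with a log2 ratio of -0.97. The genes most like it over classes were Csf3r and Lilrb2 (r 0.92 and 0.90), which encode receptors of myeloid cells.

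Lcn2 was detected in very few cells of any kind. It had 52 UMIs in 32 of the 11906 astrocyte-like cells, 0.667 CPM (0.498 to 0.874), and 58 UMIs in 28 of the other cells, 0.327 CPM (0.248 to 0.422). By library the astrocyte-like cells had 1, 1, 5, 5, 14 and 26 UMIs, and 16 of the 26 in library 6 came from 1 cell. Without library 6 the astrocyte level was 0.402 CPM. The other cells had 8, 16, 6, 3, 22 and 3 UMIs. Of the 58 UMIs outside astrocyte-like cells, 44 were in cluster 27, 52.1 CPM (37.8 to 69.9). Cluster 27 passed all 8 measured endothelial markers, which code for proteins of the vessel lining, but its mural marker score lay too close for it to be named. Neutrophil-like cells had no Lcn2 UMI, which at their depth allows up to 9.84 CPM (3 counts).

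Osmr, the oncostatin M receptor gene, was also detected in very few cells. Astrocyte-like cells had 31 UMIs in 28 cells, 0.397 CPM (0.270 to 0.564), and the other cells 20 UMIs in 18 cells, 0.113 CPM (0.0688 to 0.174). By library the astrocyte-like cells had 1, 1, 0, 9, 15 and 5 UMIs, of which 4 in library 5 came from 1 cell, and the other cells 3, 2, 3, 1, 6 and 5. Of the 20 UMIs outside, 16 were in cluster 27, 18.9 CPM (10.8 to 30.7), and microglia-like cells had none in 94490003 UMIs, which allows up to 0.0317 CPM. At these counts no difference between libraries can be read. Over the 16 classes and clusters, Cxcl12 and Cdc45 were most like Lcn2 (r 0.93 and 0.91), and Cdc45 and Aspscr1 most like Osmr (0.98 and 0.96). Cxcl12 and Cdc45 are among the 10 leading genes of cluster 27. These r values rest almost wholly on cluster 27, since Lcn2 was at most 4.01 CPM and Osmr at most 0.397 CPM in any other class. A gene that leads in cluster 27 therefore scores high.

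Serpina3n, which encodes a secreted protease inhibitor and is a common marker of reactive astrocytes in mouse, had no UMI in any of the 58078 barcodes, kept or not. A count of 0 in 77992947 astrocyte UMIs allows up to 0.0385 CPM there. Its relatives Serpina3c and Serpina1 were also at 0 over all barcodes, and Serpina3m had 1 UMI. In all, 7982 of the 30452 genes (26.2%) had no UMI. Whether the gene model used for counting covers the 3′ end of this transcript was not tested, so the 0 is a count and not a statement on the tissue.

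The members differed among the 6 astrocyte-like clusters. Clusters 6, 7, 8 and 9 came from all or most libraries, while 1148 of the 1164 cells of cluster 11 were from library 3 and 836 of the 840 cells of cluster 12 from library 4, so in these 2 clusters a library and a cell state cannot be told apart. Gfap was at 2083 CPM (2052 to 2113) in cluster 9, 1761 CPM in cluster 6, 1489 CPM in cluster 8 and 1214 CPM in cluster 7. Cluster 9 was highest of the clusters with at least 20 cells in 5 of the 6 libraries. Pooled, Cd44 had the same leading clusters, with 32.5 CPM (28.8 to 36.5) in cluster 9 and 25.2 CPM (23.4 to 27.0) in cluster 6. It was at 10.8 CPM (9.52 to 12.1) in cluster 7 and 8.56 CPM (5.89 to 12.02) in cluster 8. For Cd44, cluster 9 was highest in 4 of the 6 libraries, cluster 6 in library 1 and cluster 11 in library 3. S100b ran otherwise. It was highest in cluster 8 in all 6 libraries, at 7096 CPM (7012 to 7180) pooled, and at 4029 CPM (3987 to 4072) in cluster 9. Cluster 8 was shallow, with a median of 1201 UMIs per cell against 10102 in cluster 6.

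**Figure D5:**
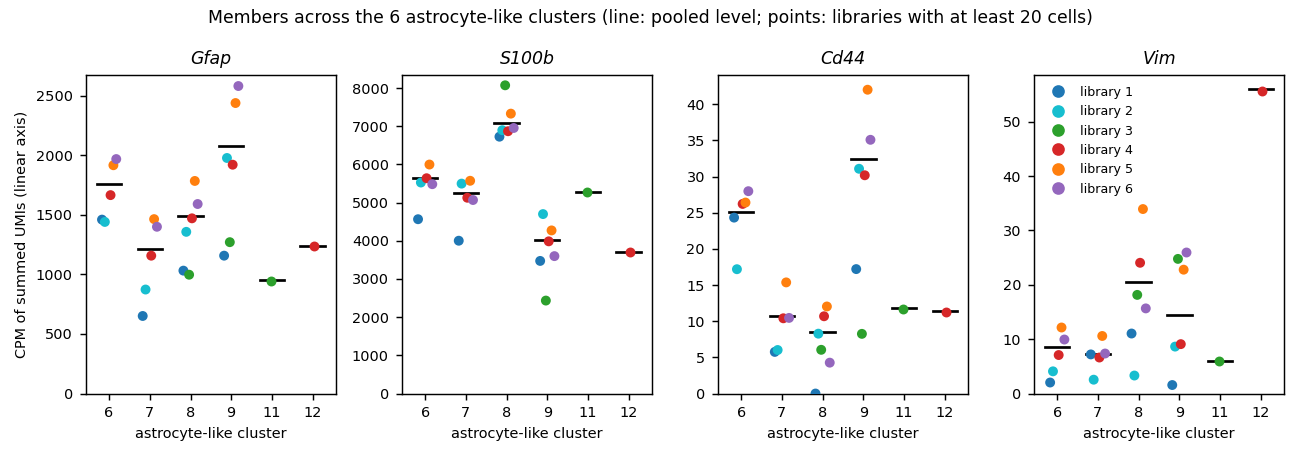
CPM of summed UMIs (vertical axis, linear, own scale per gene) of Gfap, S100b, Cd44 and Vim in the 6 astrocyte-like clusters; lines are pooled levels and points are libraries with at least 20 cells in the cluster. Gfap and Cd44 are highest in cluster 9 (2083 and 32.5 CPM), S100b in cluster 8 (7096 CPM), and Vim in cluster 12 (55.9 CPM), which is nearly all library 4.

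Vim was at 55.9 CPM (48.5 to 64.3) in cluster 12 and at 6.02 to 20.5 CPM in the other 5 clusters. Gfap also differed between libraries within a cluster. In cluster 7 it was 651, 873, 1158, 1465 and 1400 CPM in libraries 1, 2, 4, 5 and 6, and in cluster 6 it was 1460, 1441, 1666, 1917 and 1969 CPM. Libraries 1 and 2 were the lowest in both clusters, as they were among these 5 libraries over all astrocyte-like cells.

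The share of cells with a Cd44 UMI was larger in bins of cells with more Gfap UMIs. At 2000 UMIs per cell, 15.9% of astrocyte-like cells had no Gfap UMI, 39.4% had 1 to 2, 30.7% had 3 to 5 and 14.0% had 6 or more. Cd44 was found in 1.99, 2.75, 4.41 and 7.18% of cells along this order. The share was higher with 6 or more Gfap UMIs than with 0 in 6 of 6 libraries, at 4.88 to 11.5% against 0.943 to 2.70%. Vim was found in 2.05, 2.03, 2.60 and 3.37% of cells along the same order, and S100b in 99.8 to 99.9%. Of the 8 members, 79.1% of thinned astrocyte-like cells showed exactly 2, 5.53% showed 3 and 0.0735% showed 4, and none showed more.

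Genes known to act with the members were counted in the same way, from 9 lists. Of all 13262 counted genes, 27.3% were higher and 21.2% lower in astrocyte-like cells. The lists are short, and a count near these shares is no trait of its list. From each list the 4 with the highest level in astrocyte-like cells are named, and any further gene was chosen after its values were seen.

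Genes that work with the filament members lay in both directions. Among 6 counted intermediate filament partners, Plec (plectin, a linker of filaments) was at 145 against 13.3 CPM and Synm (synemin) at 20.0 against 1.47 CPM in astrocyte-like against other cells. Nes (nestin) was lower, at 3.40 against 26.0 CPM, as was Lmnb1, and Lmna (45.2 against 23.1 CPM) and Ina were within 2-fold. This gave 2 higher and 2 lower, and the list median was 0.19.

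Of the other reactive astrocyte lists from mouse, the counted A1-type and A2-type genes were mostly lower in astrocyte-like cells of these libraries. The pan-reactive genes lay in both directions. Of 6 other pan-reactive genes counted, Aspg (28.3 against 1.04 CPM) and S1pr3 (5.69 against 1.17 CPM) were higher, and Hspb1, a small heat shock protein gene (72.5 against 812 CPM), Cp (13.3 against 41.0 CPM) and Cxcl10 were lower. Timp1 was within 2-fold, at 10.7 against 13.3 CPM. The list median was -0.92. Of 8 A1-type genes counted, Amigo2 (40.1 against 5.78 CPM) and Serping1 (13.6 against 2.15 CPM) were higher and 6 were lower, among them C3, the central complement gene (19.9 against 255 CPM), Psmb8 (45.1 against 266 CPM) and Fkbp5 (17.1 against 39.9 CPM). Of 6 A2-type genes counted, Emp1 was higher (6.18 against 0.310 CPM) and 5 were lower, with Cd14 at 6.15 against 45.2 CPM, Slc10a6 at 4.32 against 69.1 CPM and S100a10 at 3.33 against 37.8 CPM. Microglia-like cells and clusters 1, 4 and 10 made up most of the other cells.

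Around Osmr, genes of oncostatin M, LIF and IL-6 signalling lay in both directions. Of 15 counted genes 3 were higher and 6 lower, with a median of -0.32. Lifr, the LIF receptor gene, was at 11.2 against 1.03 CPM, and Cntfr, the CNTF receptor gene, at 8.90 against 0.332 CPM. Stat3 was at 115 against 52.3 CPM but past 2-fold in only 2 of 6 libraries. Osm, the ligand of Osmr, was at 2.49 CPM in astrocyte-like cells against 37.8 CPM in the others. Il6st, the gp130 chain that pairs with Osmr, was at 118 against 348 CPM but past 2-fold in only 3 of 6 libraries. Socs3, a feedback inhibitor of this pathway, was at 6.42 against 113 CPM. Jak1, the kinase gene, was within 2-fold at 123 against 187 CPM, as was the phosphatase gene Ptpn11 at 70.5 against 54.0 CPM.

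Around Cd44, most counted genes of a mixed list of hyaluronan matrix proteins, ligands and partners were higher in astrocyte-like cells. The hyaluronan synthase genes Has1, Has2 and Has3 lay below the filter and were not counted, with 0.0898, 0.103 and 0.0385 CPM in astrocyte-like cells. Of 9 counted genes of hyaluronan and other CD44 ligands and partners, 6 were higher and 1, Spp1 (osteopontin), was lower, with a median of 2.58. Bcan (brevican) was at 2039 against 90.2 CPM, Ezr (ezrin, which links Cd44 to actin) at 431 against 71.3 CPM, Hapln1 at 120 against 3.41 CPM and Ncan (neurocan) at 66.5 against 2.83 CPM. Rdx (radixin) was within 2-fold at 151 against 81.6 CPM.

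The S100 relatives of S100b split into 3 higher and 5 lower of 9 counted, with a median of -1.81. S100a16 was at 587 against 49.5 CPM and S100a1 at 309 against 30.5 CPM, while the calprotectin genes S100a8 and S100a9 were lower, at 1.80 against 35.2 CPM and 7.36 against 117 CPM. Ager, a receptor for S100 proteins, was at 7.80 against 2.79 CPM, and S100a4 was within 2-fold at 28.6 against 56.0 CPM.

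For the secreted members, 4 of 6 counted serpins were higher, with a median of 1.80: Serpine2 was at 685 against 38.0 CPM and Serpinh1, a collagen chaperone gene, at 263 against 22.4 CPM. Serping1, the C1 inhibitor gene already given, was higher, and Serpini1 was within 2-fold at 13.2 against 11.5 CPM. Of 10 counted genes of lipocalin 2 and iron handling, 5 were higher and 5 lower, with a median of 0.24. Slc22a17, the receptor gene for lipocalin 2, was at 277 against 73.1 CPM and Tfrc, the transferrin receptor gene, at 96.4 against 24.2 CPM, while the ferritin chains Fth1 (1741 against 5746 CPM) and Ftl1 (186 against 1920 CPM) were lower. Steap3, a relative of Steap4, was at 31.3 against 3.13 CPM, the opposite direction to Steap4.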

How the data were processed

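The deposited count matrix holds UMI counts per gene and barcode, pooled over 6 libraries and made with Cell Ranger 7.0.0 per the file headers. The submitters' processing notes name the mouse build mm10, while the deposited gene identifiers are rat Ensembl IDs, and the rat annotation is not given in the sources used here. The 8 members and the gene lists were chosen with earlier results of these data known.

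The filters on barcodes (minimum 500 UMIs and 200 genes, mitochondrial share up to 20% over 37 genes) passed 48704 of 58078, and 3904 likely doublets were then removed. They were scored by simulated doublets among 30 neighbours, at 0.8% per 1000 cells of a library. Clustering used 2000 variable genes without the members and lists, 30 principal components, 15 neighbours and Leiden resolution 1.0 (igraph 0.11.9, leidenalg 0.10.2). A cluster was named where the mean log2 level of a marker list, relative to the median cluster with 10 CPM added, was at least 1 and led the next list by 1.25, with at least 3 markers passing. The lead of 1.25 and the dropping of red cell markers were settled after seeing the data.

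UMIs were summed per class and library. CPM has exact 95% Poisson intervals and shares have exact binomial ones, for counting error only, since UMIs of 1 library share their source. A gene was counted with at least 1 CPM over all kept cells and called at a 2-fold ratio; a level of 0 allows up to 3 counts. The ratio calculation was checked on simulated counts with known folds. edgeR 4.0.16 gave TMM factors as an alternative. The named genes were all members, the 3 most like genes over thinned cells for members found in at least 5% of them, the 2 most like over classes among genes with at least 10 CPM, and up to 4 per list. No significance test was run, because libraries carry no label. Alternatives covered filters, doublets, naming, resolution, scaling, the compared cells and leaving out each library.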

Additional observations from a re-analysis of the deposited data

How the results depend on the processing

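Under 20 alternative settings Gfap, S100b and Vim kept their direction and stayed past 2-fold, with log2 ratios of 3.27 to 4.94, 3.39 to 4.66 and -4.89 to -1.33. The -1.33 for Vim is pooled against microglia-like cells alone, whose library mix differs from that of astrocyte-like cells. Cd44 ran over 0.64 to 3.52 and was under 2-fold in 2 settings, and Steap4 over -3.61 to -0.97 and under 2-fold in 1; no called ratio changed sign. With likely doublets kept, astrocyte-like cells had 20.8 CPM of Vim in place of 11.3 and 0.906 CPM of Steap4 in place of 0.474; Lcn2 was at 0.438 CPM when cells took the name of their top marker list and at 0.402 CPM without library 6, in place of 0.667. Against the median CPM of the other classes and clusters, 1 member was at least 2-fold lower in place of 2. With 10 CPM added, 2088 genes were higher and 1502 lower, because low genes then fall under 2-fold by construction. The TMM factor of edgeR moved the median of all genes to -0.03 from 0.20 and gave 3021 higher and 3257 lower genes, against 3623 and 2805. The astrocyte-like share of kept cells depended on the filters: it was 11.6% with a mitochondrial limit of 10%, 33.8% with no limit and 23.1% when each cell took its highest marker score. Without each library in turn it was 21.4 to 29.4%, lowest without library 4. Weighting the 6 libraries equally, an alternative chosen after seeing the data, gave a share of 26.8%, with 3 members higher and 2 lower. No paired analysis was possible because libraries that no label ties to a sample are not used as replicates in a test; the ratios within each library are given as values. Lcn2, Osmr and Steap4 rest on 52, 31 and 37 UMIs in astrocyte-like cells, so only large differences could be seen.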

Other observations

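The levels of Gfap, Cd44 and Vim in astrocyte-like cells fell into 2 sets of libraries that no label names. Gfap was at 1477, 1805 and 1787 CPM in libraries 4, 5 and 6 and at 1081, 1266 and 952 CPM in libraries 1, 2 and 3. Cd44 was at 19.1, 23.4 and 20.7 CPM in libraries 4 to 6 and at 14.9, 13.7 and 11.4 CPM in libraries 1 to 3, and Vim at 15.03, 13.7 and 10.8 CPM and at 4.33, 4.10 and 6.92 CPM. Osmr was at 0.366, 0.762 and 0.377 CPM in libraries 4 to 6 and at 0.271, 0.0931 and 0 CPM in libraries 1 to 3. It rests on at most 15 UMIs per library, so no split can be read from its values. How many other genes split this way was not counted, so the split cannot be called particular to these members. S100b, Steap4 and Lcn2 overlapped between these libraries, S100b with 5031, 5738 and 5212 CPM in libraries 4 to 6 and 4271, 5503 and 5378 CPM in libraries 1 to 3. The share of astrocyte-like cells fell into the same sets, at 50.3, 30.3 and 38.2% in libraries 4 to 6 and 10.3, 15.7 and 16.03% in libraries 1 to 3. The libraries were not assigned to irradiated or control rats from these values.

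Microglial markers in astrocyte-like cells summed to 1037, 505 and 354 CPM in libraries 4 to 6 and 1305, 1142 and 1079 CPM in libraries 1 to 3. Border macrophage markers summed to 26.1, 18.7 and 10.4 CPM in libraries 4 to 6 and 8.66, 7.45 and 6.10 CPM in libraries 1 to 3. Cluster 31 held 75 cells in which all 16 astrocyte markers passed, but its microglial score lay too close for a name; it had Gfap at 32.6% and S100b at 21.1% of their astrocyte-like level.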
